A study of Arabidopsis thaliana with 4 samples.

Results

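CGLD27 and 9 genes of iron homeostasis (FIT, bHLH38, bHLH39, bHLH100, PYE, BTS, IRT1, FRO2 and FER1) were followed in RNA-seq libraries of Arabidopsis thaliana seedlings, as 10 of the 37336 genes counted. They were taken by locus identifier and had been selected on their normalized counts in these same 4 libraries, that is on the contrast of s2lb-2 with WT, so that the differences between genotypes given for them are descriptions and carry no test. All 10 identifiers were in the count table, matched the annotation under these names or a recorded synonym (FIT is listed as FRU), and passed the filter on low values. The genotypes were s2lb-2, with 2 libraries, and wild-type (WT) Col-0, also with 2 libraries. S2Lb is a SWD2-like WD40 protein of the plant COMPASS-like complexes, which deposit H3K4 trimethylation. The s2lb-2 allele is an insertion from the RIKEN collection, which was made in the Nossen strain, and was backcrossed repeatedly to Col-0. Each library came from about 12 whole seedlings, 6 days old, grown in long days on MS agar with no sugar, and neither the labels nor the methods name a treatment with or without iron. Replicates came from different seed batches. The genotype field of the mutant samples gives a tagged SDG2 line instead, whereas their titles and the study's methods give s2lb-2, which was followed.

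S2Lb itself had 80.8 and 67.2 normalized counts in the libraries labelled s2lb-2, against 1337 and 1613 in WT (log2 fold change −4.30 ± 0.17 SE; limma, adjusted p = 0.0062). SDG2 had 2253 and 2298 normalized counts in s2lb-2 and 2010.0 and 2008 in WT, and S2La, the S2Lb paralogue, differed by −0.05 ± 0.17 on the log2 scale. The libraries held 34325097 to 39114300 reads on genes. Of 23723 genes tested, 29 passed limma at an adjusted p under 0.01 and 379 at an adjusted p under 0.05, with 160 up and 219 down in s2lb-2. The median log2 fold change over all of them was −0.00.

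In Arabidopsis roots, iron is taken up by a strategy of acidification, reduction and transport. FIT and the subgroup Ib factors bHLH38, bHLH39, bHLH100 and bHLH101 act as dimers to switch on FRO2, a ferric chelate reductase, and IRT1, the ferrous iron transporter of the root epidermis. Upstream factors such as ILR3 and bHLH115 switch on the subgroup Ib genes when iron is scarce, and the iron-binding ubiquitin ligase BTS limits those upstream factors. PYE is a bHLH repressor of other iron genes in low iron, FER1 is a plastid ferritin that stores iron when it is ample, and CGLD27 encodes a protein of a domain family (DUF1230) kept in green algae, plants and diatoms, whose transcript is known to respond to iron in Arabidopsis.

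The members did not move alike. In s2lb-2 seedlings 8 of the 10 had both libraries above both WT libraries, FER1 had both below, and FIT overlapped. Over all genes tested, 24.8% had both s2lb-2 libraries above and 24.7% had both below. The median log2 fold change of the members was 1.15 and their range was −1.82 to 1.94.

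**Figure D1:**
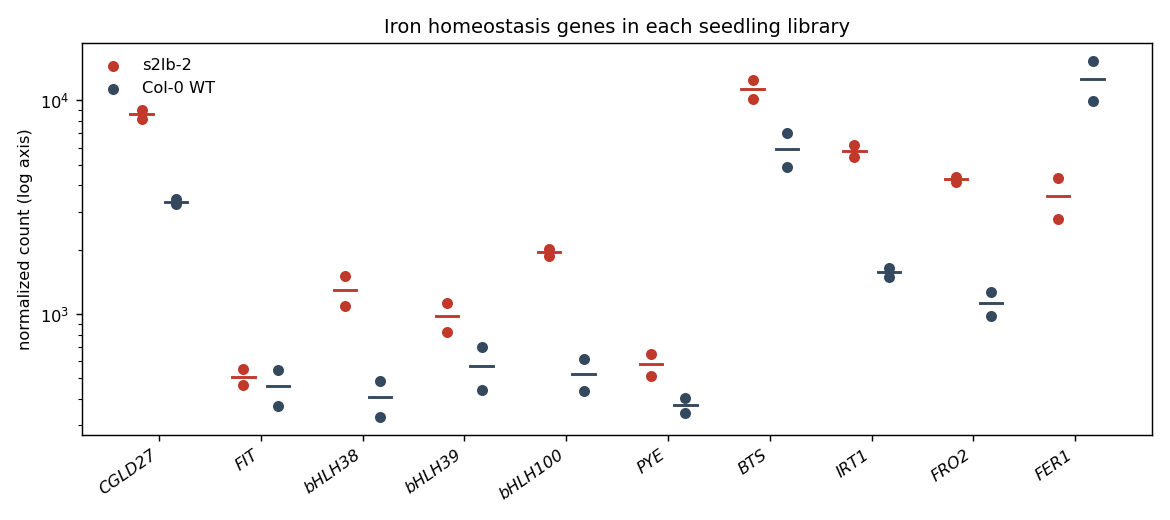
Normalized counts (log axis) of the 10 members in each library, with s2lb-2 in red to the left of Col-0 WT in dark blue for each gene. Points are libraries (2 for each genotype) and bars are means. The points of the genotypes overlap for FIT alone, and FER1 is the gene whose s2lb-2 points lie below those of WT.

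CGLD27 (AT5G67370, chr5:26877272-26879639, minus strand, TAIR10.1) had 8199 and 9002 normalized counts in s2lb-2, against 3268 and 3444 in WT. The means were 8600.5 ± 568 and 3356 ± 124 (SD, n = 2 each), a ratio of 2.56 and a log2 fold change of 1.36 ± 0.08 (SE of the fit over all genes). The replicates lay close together, with log2 differences of 0.13 between the s2lb-2 libraries and 0.08 between the WT libraries.

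FIT (AT2G28160, chr2:12004658-12006276, plus strand), the central activator, had 464 and 551 normalized counts in s2lb-2 and 547 and 369 in WT. Its libraries overlapped between genotypes, and its log2 fold change was 0.17 ± 0.21. The 95% interval of that difference ran from −0.36 to 0.71, and without WT replicate 2 the value was −0.11. A smaller change of FIT transcript was not detectable with these 4 libraries.

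The subgroup Ib partners of FIT were all higher in s2lb-2, but by unequal amounts. bHLH100 (AT2G41240, chr2:17198037-17199454, minus strand) had 1861 and 2021 normalized counts in s2lb-2, against 437 and 614 in WT, a log2 fold change of 1.90 ± 0.18. bHLH38 (AT3G56970, chr3:21084035-21085245, minus strand) had 1085 and 1501 in s2lb-2, against 329.6 and 482 in WT, a log2 fold change of 1.68 ± 0.24. Its neighbour bHLH39 (AT3G56980, chr3:21086390-21087710, minus strand) had 823 and 1127 in s2lb-2, against 438 and 699 in WT, which is 0.80 ± 0.26 on the log2 scale. For bHLH39 the gap between the lower s2lb-2 library and the higher WT library was smaller than the spread within either genotype. bHLH38 and bHLH39 stand in tandem, 1144 bases apart, and their spliced sequences are 82.5% identical over 1053 aligned bases. No 50-base stretch of their exons, nor of those of the other members, occurs a second time in the genome (984 to 3809 stretches for each gene), so single reads of that length without errors could be assigned.

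The other regulators were higher as well. PYE (AT3G47640, chr3:17567126-17569394, plus strand) had 513 and 652 normalized counts in s2lb-2, against 404 and 342 in WT, a log2 fold change of 0.64 ± 0.17 and the smallest one among the members without overlap. BTS (AT3G18290, chr3:6273966-6280562, plus strand) had 10165 and 12502 in s2lb-2, against 4882 and 7000.3 in WT, a log2 fold change of 0.95 ± 0.19. The WT libraries differed from each other by 0.52 on the log2 scale, and the s2lb-2 libraries by 0.30.

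The genes of root uptake showed some of the widest gaps. IRT1 (AT4G19690, chr4:10707344-10709015, plus strand) had 5437 and 6183 normalized counts in s2lb-2, against 1491 and 1634 in WT, which gives 5809.9 ± 527 and 1563 ± 101 (SD, n = 2 each) and a ratio of 3.72. Its log2 fold change was 1.89 ± 0.10. FRO2 (AT1G01580, chr1:208995-213082, plus strand) had 4158 and 4386 in s2lb-2, against 976 and 1267 in WT, a ratio of 3.81 and a log2 fold change of 1.94 ± 0.14. For both genes the lower s2lb-2 library exceeded the higher WT library more than 3-fold.

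FER1 (AT5G01600, chr5:227953-230051, minus strand) ran the other way, with 4345 and 2791 normalized counts in s2lb-2, against 15276 and 9957 in WT. The means were 3568 ± 1098 and 12616 ± 3761 (SD, n = 2 each), so that WT held 3.54 times as much, and the log2 fold change was −1.82 ± 0.28. Within both genotypes the library of replicate 2 was the lower one, by 0.64 on the log2 scale in s2lb-2 and by 0.62 in WT. AT5G01595, which overlaps FER1 on the other strand, had 20.7 and 12.4 normalized counts in s2lb-2 and 15.7 and 11.1 in WT. PIP5K4, which overlaps bHLH38 on the other strand, had 112 and 120.0 in s2lb-2 and 110.2 and 132 in WT. The library kit marked strand, but the strand setting of the counting was not given in the sources used here.

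At an adjusted p under 0.05, limma called CGLD27, IRT1, FRO2, bHLH38 and bHLH100 up, that is 5 of 10 members beside 0.674% of all genes tested, and FER1 down, beside 0.923%. At 0.01 it called CGLD27 and IRT1 up, beside 0.0632%, and no member down, beside 0.059%. At 0.01 edgeR's quasi-likelihood test called CGLD27, IRT1 and FRO2 up, beside 0.0885%. DESeq2 on the recovered reads, the study's own kind of test, called 6 members up at 0.01 (the 5 above and BTS), beside 1.48%, and FER1 down, beside 1.93%. Since the members were picked with this contrast known, these calls are listed for completeness.

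**Figure D2:**
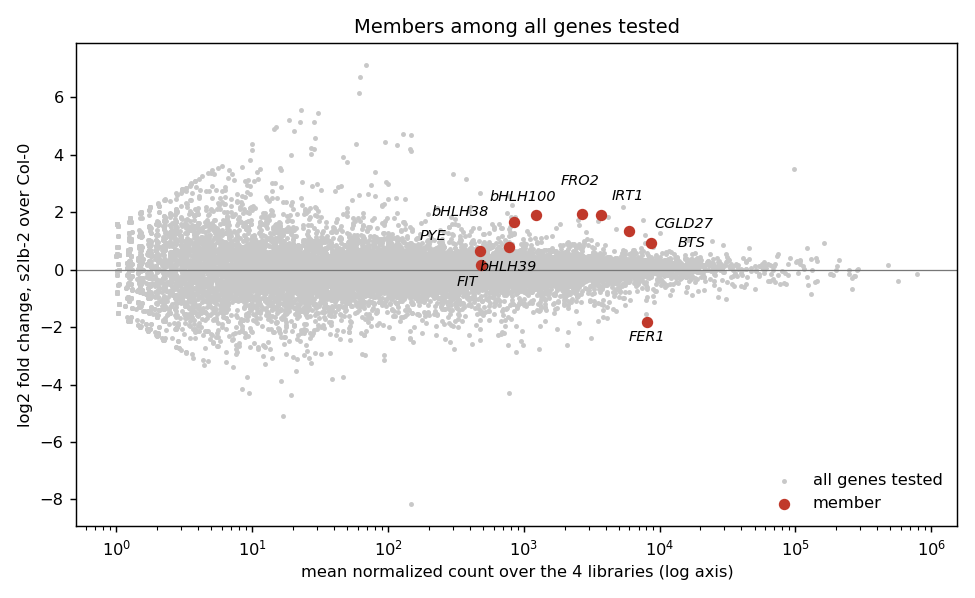
Log2 fold change of s2lb-2 over Col-0 against the mean normalized count over the 4 libraries (log axis), for the 23723 genes tested (grey) and the 10 members (red). Most grey points at the members' means lie near 0, and all members but FIT and FER1 lie between 0.64 and 1.94.

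Per exon length, the order of the members differed between the genotypes. Levels were expressed as TPM (recovered reads divided by annotated exon length and scaled to a common total). In s2lb-2, CGLD27 was the highest, with 224 and 266 TPM, followed by IRT1 with 148 and 181 TPM. BTS had 96.0 and 127 TPM and FER1 129.8 and 90.0 TPM there, with libraries that overlapped each other. bHLH100, FRO2 and bHLH38 came next, at 42.6 to 80.0 TPM, with neighbours that overlapped, then bHLH39 at 28.8 and 42.5 TPM, and PYE and FIT at 14.3 to 21.6 TPM, again with overlap. In WT, FER1 came first at 461 and 306 TPM, then CGLD27 at 90.2 and 96.8 TPM, BTS at 46.5 and 67.9 TPM and IRT1 at 40.9 and 45.6 TPM, with no overlap between neighbours in this order. The other 6 lay between 10.8 and 25.1 TPM in WT, each overlapping the next.

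**Figure D3:**
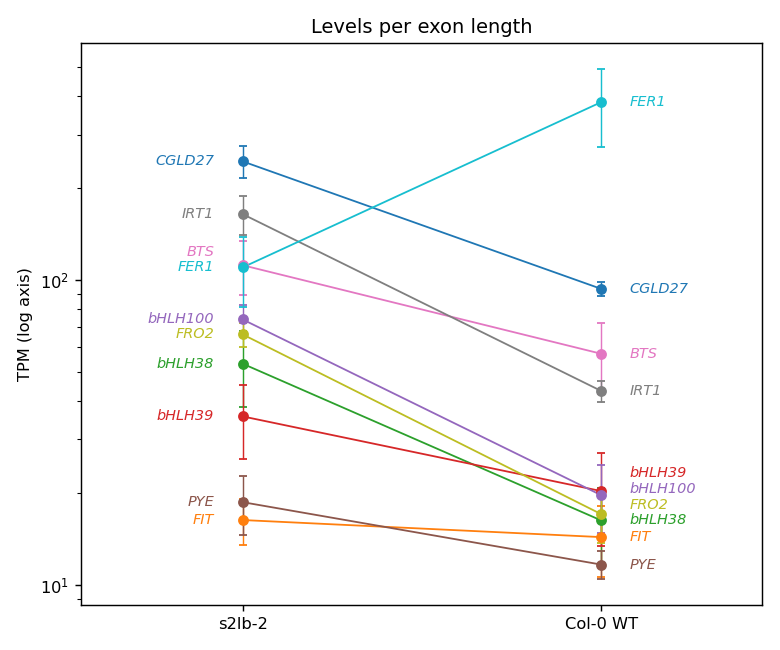
Level of each member in TPM (log axis) in s2lb-2 (left) and Col-0 WT (right). Points are means of 2 libraries and bars are SD. FER1 is at 109.9 TPM in s2lb-2 and tops the WT column at 383 TPM, while CGLD27 is at 245 TPM in s2lb-2 and 93.5 TPM in WT.

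The upstream sequences of the members, which played no part in their choice, were searched for the E-box CANNTG, the kind of element that bHLH proteins bind, and for its form CACGTG. Both read the same on either strand, and each CACGTG also counts as a CANNTG. In the 250 bases before the annotated start, 5 of 10 members held CANNTG (FIT, bHLH38, bHLH39, bHLH100 and BTS), against 55.3% of 27444 protein-coding genes. CACGTG was held by 3 of them (bHLH38, bHLH100 and BTS), against 6.49% of those genes. The spliced sequences of bHLH38 and bHLH100 are 72% identical, so the 3 do not count as unrelated genes. Over 1000 bases the shares were 9 of 10 against 96.2% for CANNTG and 4 of 10 against 14.8% for CACGTG, with IRT1 added and PYE holding neither. Of these windows 5 are printed 5′ to 3′, from RefSeq TAIR10.1. Those of BTS, bHLH38, bHLH39 and bHLH100 show the sites, and that of CGLD27 has none. FIT, whose libraries overlapped between genotypes, also holds CANNTG and is not printed. Capitals mark CANNTG. The windows are chr3:6273716-6273965, plus strand for BTS, chr3:21085246-21085495, minus strand for bHLH38, chr3:21087711-21087960, minus strand for bHLH39, chr2:17199455-17199704, minus strand for bHLH100 and chr5:26879640-26879889, minus strand for CGLD27.
BTS: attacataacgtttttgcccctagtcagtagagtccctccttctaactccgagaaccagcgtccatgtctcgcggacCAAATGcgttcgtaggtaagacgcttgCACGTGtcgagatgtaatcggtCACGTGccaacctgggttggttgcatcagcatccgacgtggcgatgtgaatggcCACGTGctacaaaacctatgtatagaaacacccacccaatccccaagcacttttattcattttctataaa
bHLH38: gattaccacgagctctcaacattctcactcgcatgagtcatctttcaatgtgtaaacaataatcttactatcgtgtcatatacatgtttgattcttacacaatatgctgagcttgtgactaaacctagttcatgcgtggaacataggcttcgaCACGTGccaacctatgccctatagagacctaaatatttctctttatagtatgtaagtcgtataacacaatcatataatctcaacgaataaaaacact
bHLH39: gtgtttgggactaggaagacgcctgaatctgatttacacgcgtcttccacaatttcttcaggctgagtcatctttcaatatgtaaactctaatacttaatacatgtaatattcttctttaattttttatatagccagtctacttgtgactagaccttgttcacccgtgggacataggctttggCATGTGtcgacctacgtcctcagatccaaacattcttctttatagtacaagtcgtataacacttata
bHLH100: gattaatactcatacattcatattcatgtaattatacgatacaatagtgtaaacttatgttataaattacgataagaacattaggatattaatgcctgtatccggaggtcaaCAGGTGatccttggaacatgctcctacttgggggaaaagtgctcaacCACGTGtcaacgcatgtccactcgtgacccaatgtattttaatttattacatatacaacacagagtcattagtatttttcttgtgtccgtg
CGLD27: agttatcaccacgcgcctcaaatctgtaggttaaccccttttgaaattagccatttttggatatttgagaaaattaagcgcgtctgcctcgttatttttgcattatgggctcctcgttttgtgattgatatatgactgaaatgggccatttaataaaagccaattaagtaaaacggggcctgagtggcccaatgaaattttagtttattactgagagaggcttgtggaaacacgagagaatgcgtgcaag

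BTS holds 3 CACGTG in that stretch, at 146, 124 and 70 bases before the start. In bHLH38 the single CACGTG lies 97 bases before the start, and in bHLH100 one lies at 91 bases. The tandem copy bHLH39 has CATGTG at 67 bases. IRT1, FRO2, CGLD27, PYE and FER1 have no CANNTG in this window, and all of these but FER1 were higher in s2lb-2. A match is only a match of letters, and binding was not measured in these data.

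CGLD27 lies on the same arm of chromosome 5 as S2Lb, with 409 kb between them. In that interval 115 genes were tested, with a median log2 fold change of −0.02 and a range of −2.96 to 1.29. Of these, limma called 2 up and none down at an adjusted p under 0.05, or 1.74%, against 1.6% of all genes. One of them is NRAMP4, a vacuolar exporter of iron and manganese whose start lies 18.4 kb from that of CGLD27, with 2409 and 2314 normalized counts in s2lb-2, against 1433 and 1414 in WT (log2 fold change 0.73 ± 0.08; limma, adjusted p = 0.0252). The other is AT5G66910 (0.94 ± 0.13), 158 kb from CGLD27 by their starts and picked out after its value was seen. The nearest tested genes on either side of CGLD27, by the edges of the genes, did not pass. ARA12, a subtilase, differed by 0.09 ± 0.11, and CKA1, a casein kinase subunit, by 0.00 ± 0.11 on the log2 scale. AT5G67385, nearer than CKA1 by gene start, differed by 0.05 ± 0.08. Among the 9 tested genes within 20 kb NRAMP4 alone passed. Outside the interval, on the far side of S2Lb, AT5G66052 and AT5G66150 also passed limma at an adjusted p under 0.05, and are described under other observations. Effects of the lost S2Lb and of any Nossen sequence still linked to the insertion cannot be told apart for CGLD27, NRAMP4 and AT5G66910. The other 9 members lie elsewhere: FER1 is near the far end of the same chromosome and 8 are on other chromosomes. Whether Nossen sequence remains at those places was not tested.

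**Figure D4:**
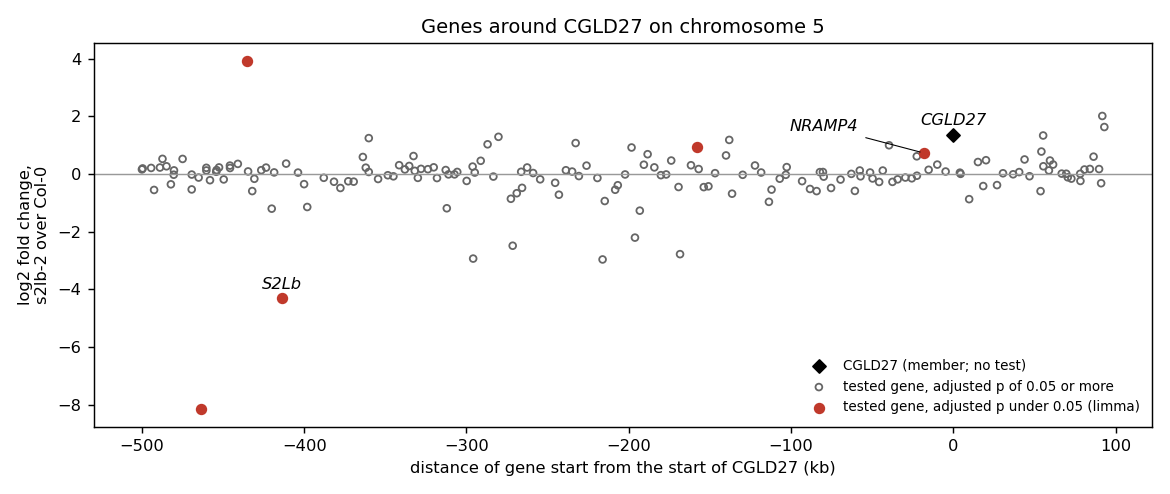
Log2 fold change of s2lb-2 over Col-0 for tested genes on chromosome 5, against the distance of each gene's start from that of CGLD27 (kb). Red points passed limma at an adjusted p under 0.05. CGLD27 (black diamond, 1.36) and NRAMP4 (0.73) stand beside nearest neighbours close to 0, and S2Lb is at −4.30.

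To place the members within metal homeostasis, 93 further genes were taken in 10 lists by function, of which 91 were tested. These lists were drawn up with earlier results of these data known. The shares set beside all genes are therefore descriptions and give the members no independent support. At an adjusted p under 0.05 limma called 10 listed genes up in s2lb-2 and none down, beside 0.674% and 0.923% of all genes tested. All 10 were among the 74 tested iron genes, and none among the 17 copper and zinc genes. Both s2lb-2 libraries lay above both WT libraries for 45.9% of the iron genes, beside 24.8% of all genes. For the copper and zinc genes that share was 47.1%. The median log2 fold changes were 0.14 (iron) and 0.17 (copper and zinc). No listed gene passed at 0.01 by limma. By the same fit 44 of 91 (48.4%) had an unadjusted p under 0.05, 32 of them up, beside 17.4% of all genes tested (8.46% up and 8.9% down). At 0.01 edgeR's quasi-likelihood test called 2 of 91 up, CYP82C4 and MTP3, beside 0.0885% of all genes. DESeq2 called 16 of 88 up at 0.01, beside 1.48%, and 5 down, beside 1.93%. Leaving out 1 of the 4 libraries leaves a genotype with a single library, assumed to vary like the other, and in those fits no gene of the whole table passed limma at 0.05, S2Lb included. The 10 called genes kept their direction there, but this was fixed in advance, since their libraries did not overlap between genotypes.

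Transcriptional regulators outside the members went both ways, with 6 of the 12 tested above 0 and 6 below, a median log2 fold change of 0.00 and a range of −1.14 to 1.81. MYB10, a MYB factor of the iron response, was the one called, and rose, with 193 and 153 normalized counts in s2lb-2, against 47.2 and 49.2 in WT (1.81 ± 0.22; limma, adjusted p = 0.0324). The last subgroup Ib gene, bHLH101, had 637 and 595 in s2lb-2, against 232 and 406 in WT, and did not pass (1.00 ± 0.27; adjusted p = 0.153). ILR3, upstream of these, had 2713 and 2728 in s2lb-2 and 2707 and 2751 in WT, and bHLH115 had 2509 and 2506 in s2lb-2 and 2536 and 2379.9 in WT. Their 95% intervals ran from −0.19 to 0.18 for ILR3 and from −0.17 to 0.23 for bHLH115.

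Among 5 genes listed with BTS, AT1G74770, annotated as a zinc ion binding protein, rose, with 1703 and 1936 normalized counts in s2lb-2, against 854 and 834 in WT (1.10 ± 0.10; limma, adjusted p = 0.0191). AT1G47400, annotated as an uncharacterized protein, had 384 and 569 in s2lb-2, against 188 and 227 in WT, and did not pass with limma (adjusted p = 0.0862). It passed at 0.01 with DESeq2. All 5 had both s2lb-2 libraries above WT, beside 24.8% of all genes.

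In the list of reduction, uptake and acidification limma called 2 of 10 genes up at 0.05. IRT2, the tandem neighbour of IRT1, had 343 and 409.6 normalized counts in s2lb-2, against 80.8 and 88.2 in WT (2.14 ± 0.17; limma, adjusted p = 0.0142). FRO1, the tandem neighbour of FRO2, is close to silent in these seedlings, with 41 reads over the s2lb-2 libraries and 3 over the WT libraries. The ratio was 13.9, with a 95% counting interval of 4.45 to 70.3 that leaves out the spread between libraries. FRO1 passed limma at 0.05 (adjusted p = 0.0492). It did not pass edgeR's quasi-likelihood test at 0.05 (adjusted p = 0.0564) or DESeq2 at 0.01 (adjusted p = 0.0332). The plasma membrane proton pump AHA2, the most abundant gene of the list, had 35749 and 35521 in s2lb-2 and 35475 and 26922 in WT, and did not pass (0.21 ± 0.14; adjusted p = 0.517). FRO3, a mitochondrial ferric reductase, had 4569 and 5705 in s2lb-2, against 2365 and 3308 in WT (0.87 ± 0.19), and passed with DESeq2 at 0.01 but not with limma (adjusted p = 0.109). The remaining FRO genes, FRO4 to FRO8, ranged from −0.45 to 0.56 and none was called.

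Of the 6 genes that make and export iron-mobilizing coumarins 3 rose, and the list median was 1.17. F6'H1, the enzyme that opens the scopoletin pathway, had 2327 and 2107 normalized counts in s2lb-2, against 1110.5 and 862 in WT (1.18 ± 0.14; limma, adjusted p = 0.0324). CYP82C4, the hydroxylase that makes sideretin, had 4338 and 3781 in s2lb-2, against 1624 and 1653 in WT (1.31 ± 0.10; adjusted p = 0.011). The exporter ABCG37 (PDR9) had 9578 and 13856 in s2lb-2, against 3784 and 3199 in WT (1.73 ± 0.19; adjusted p = 0.0249). The other 3 had s2lb-2 libraries above WT as well (beside 24.8% of all genes), with log2 fold changes of 0.18 to 1.17.

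Among chelators and transporters, OPT3, a phloem transporter of iron, rose, with 14093 and 14606 normalized counts in s2lb-2, against 5460.1 and 6393 in WT (1.28 ± 0.10; limma, adjusted p = 0.0129). MTP3, a vacuolar zinc transporter that responds to low iron, rose too, with 565 and 700.2 in s2lb-2, against 148 and 157 in WT (2.04 ± 0.16; adjusted p = 0.0128). Lower values were found for the nicotianamine synthase NAS3, with 42.4 and 23.8 in s2lb-2, against 181 and 83.6 in WT, and for the metal-nicotianamine transporter YSL1, with 396 and 205 in s2lb-2, against 1036 and 567 in WT. Neither passed with limma (adjusted p = 0.128 and 0.168), and both passed with DESeq2 at 0.01. In the list of chelation and long-distance transport, limma called 1 of 11 up at 0.05 and none down, and DESeq2 called 3 up and 3 down at 0.01. In that of vacuolar, plastid and mitochondrial transport, limma called 2 of 13 up and DESeq2 3 of 12 up, with none down by either. Called up by DESeq2 but not by limma were YSL2, ZIF1 and AT3G58060, with log2 fold changes of 0.85 ± 0.22, 1.08 ± 0.20 and 2.48 ± 0.40 (SE). IREG1, also called down by DESeq2 alone, had −0.70 ± 0.14 (SE). The vacuolar iron transporter VIT1 had 0 and 0 in s2lb-2 and 4.2 and 4.64 in WT, near the limit of detection. The plastid permease PIC1, the most abundant gene of the organelle transport list, had 4581 and 4352 in s2lb-2 and 4337 and 4195 in WT (0.07 ± 0.08).

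The list of iron storage and iron-dependent redox enzymes had a median log2 fold change of −0.49, and all 9 of its values were below 0, beside FER1. None passed limma at 0.05, while 5 of 9 (55.6%) had an unadjusted p under 0.05, all down, beside 8.9% of all genes. The ferritin FER4 came nearest, with 862 and 537 normalized counts in s2lb-2, against 1874 and 1699.9 in WT (−1.39 ± 0.23; limma, adjusted p = 0.0584), and FER3 had 2379 and 1824 in s2lb-2, against 5276 and 3736 in WT (−1.09 ± 0.20; adjusted p = 0.081). DESeq2 called both down at 0.01. NEET, an iron-sulphur protein, had 1519.8 and 752 in s2lb-2, against 4573 and 3298 in WT, and the abundant iron superoxide dismutase FSD1 had 33931 and 23348 in s2lb-2, against 43356 and 40552 in WT. Neither passed (adjusted p = 0.081 and 0.203). The cytosolic ascorbate peroxidase APX1, with 31844 and 24154 in s2lb-2 and 47904 and 31534 in WT, overlapped between genotypes.

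The remaining lists held no call by limma at 0.05. The 8 tested genes of plastid iron-sulphur cluster assembly had a median of 0.09 and ranged from −0.38 (ABCI8) to 0.38. The 8 copper genes had a median of 0.03, with the copper chaperone CCH at 11297 and 10180.0 normalized counts in s2lb-2 and 10493 and 10389 in WT, and CSD1 the highest at 0.52 ± 0.14. The 9 zinc genes had a median of 0.37 and a range of −0.17 to 0.76. Both s2lb-2 libraries lay above both WT libraries for 6 of 9 zinc and 2 of 8 copper genes, beside 24.8% of all genes. At an unadjusted p under 0.05 there were 3 of 8 iron-sulphur (37.5%), 1 of 8 copper (12.5%) and 3 of 9 zinc genes (33.3%), all up, beside 8.46% of all genes. DESeq2 called 1 of these genes at 0.01, the zinc exporter HMA2, with 784 and 627 in s2lb-2, against 428 and 398 in WT (0.76 ± 0.15).

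**Figure D5:**
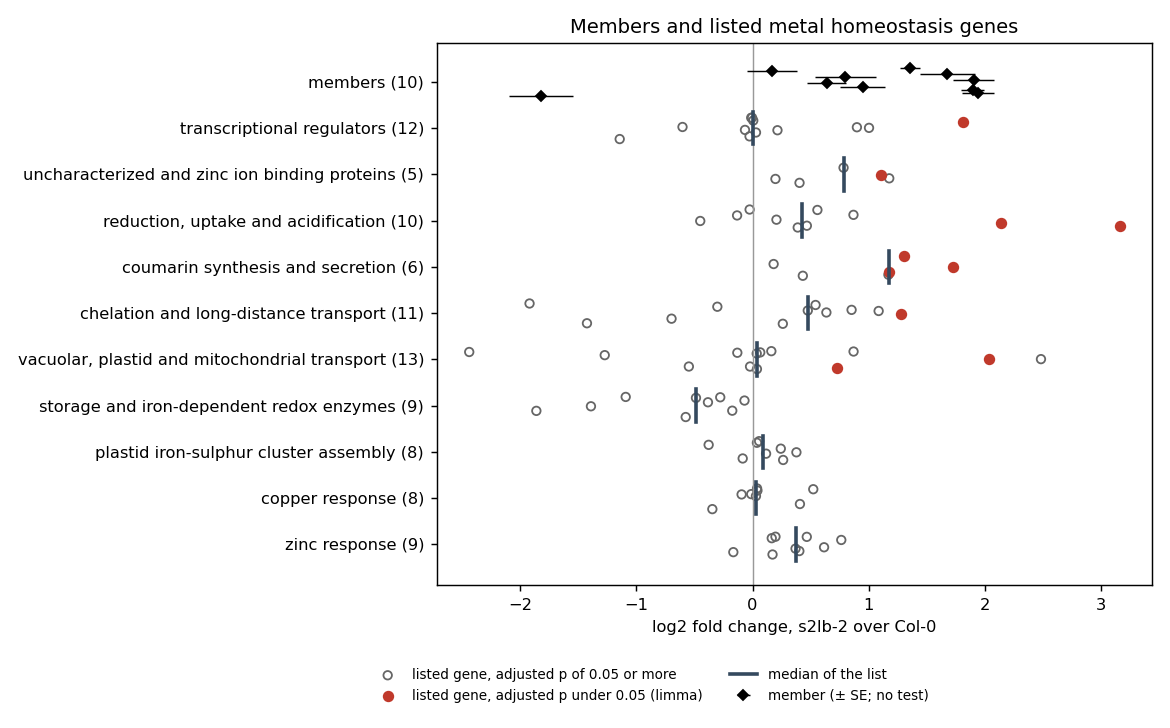
Log2 fold change of s2lb-2 over Col-0 for the members (black diamonds, ± SE) and for the tested genes of 10 lists (circles; number tested in brackets), with each list's median as a dark bar. Filled red circles passed limma at an adjusted p under 0.05. All 10 filled circles lie above 0 and in iron lists, which hold 74 of the 91 tested genes, and the storage list lies wholly below 0.

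The seedlings were harvested whole, so fewer cells of a type and less RNA per cell cannot be told apart. The markers of the tissues involved were compared for this reason. Of 7 root hair and root epidermis markers, where IRT1 and FRO2 are known to act, none was called, and their summed level was 52.7 and 62.8 CPM in s2lb-2, against 59.7 and 42.7 in WT. The 7 markers of inner root tissue and root tip summed to 158 and 167 in s2lb-2, against 159 and 142 in WT. The 7 of green shoot tissue summed to 45416 and 43894 in s2lb-2, against 46375 and 46422 in WT. Such sums are weighted to the most abundant markers. Single markers went both ways, with log2 fold changes of −0.54 to 0.50, −0.36 to 0.44 and −0.19 to 0.36 in these lists in that order. Both s2lb-2 libraries lay above both WT libraries for 2, 2 and 1 of them, and below for 1, 3 and 1. Over all genes tested those shares were 24.8% and 24.7%. None of the 21 markers was called by limma at 0.05 (3 at an unadjusted p under 0.05, beside 17.4% of all genes) or by DESeq2 at 0.01, and none was at 0 in any library. The part of tissue proportions in the members' differences was not tested.

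The genes nearest to CGLD27 in pattern were sought by the Euclidean distance of the 4 centred log2 values, over 17912 other genes with a mean of at least 50 normalized counts. P5CS1, a proline synthesis enzyme, came first (distance 0.098), with 8025 and 8177 normalized counts in s2lb-2, against 3090.0 and 3415 in WT. AT5G48050, annotated as a retrotransposon protein, AT3G63380, an ATPase, OPT3 and PAD3, a cytochrome P450 of camalexin synthesis, followed at distances of 0.129 to 0.149. With 4 libraries this is a description of values and not of a shared control. The other members ranked 142 (bHLH38), 150 (BTS), 160 (IRT1), 220 (bHLH100), 223 (FRO2), 367 (bHLH39), 422 (PYE), 5461 (FIT) and 17827 (FER1).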

How the data were processed

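Poly(A) RNA libraries were sequenced as single 50-base reads. Per the labels and methods, the authors aligned reads to TAIR10 with STAR 2.5.4b and counted them per Araport11 gene. The deposited table gives counts divided by DESeq2 size factors, a normalized signal per gene. Multiplied by their size factors, 100% of these deposited values were whole reads (tolerance 1e-06), 34325097 to 39114300 per library. A second deposited table, of the authors' mean counts, fold changes and p-values, was not used.

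limma 3.58.1 with trend was fitted in R 4.3.3 on log2(normalized count + 1) over all 4 libraries for genes with a mean of at least 1, with Benjamini-Hochberg adjustment over 23723 genes. Fold changes are on that scale. The p-values of limma rest on the spread between 2 libraries per genotype, moderated toward the trend over all genes (prior degrees of freedom 3.55). Thresholds were 0.01, as in the study, and 0.05. DESeq2 1.42.0, edgeR 4.0.16 and voom on recovered reads, other scalings, pseudocounts and filters, a replicate block and leaving out each library were alternatives. The code of the fits was run on simulated counts with the same dispersion for all genes and no replicate effect. That setting is simpler than these data, so the run does not bear on the calls made here. TPM used exon lengths of the TAIR10.1 annotation (37051 of 37336 identifiers matched). The files hold no coordinates, and those printed are from RefSeq TAIR10.1. Members and lists were chosen with earlier results of these data known. Named are all members, S2Lb, S2La and SDG2, listed genes under 0.05 by limma, up to 2 abundant genes per list, neighbours of CGLD27 and its 5 nearest genes in pattern. Other listed genes were named after their values were seen. The 3 marker lists are described as sums, with ranges of log2 fold change and counts of markers without overlap. Counting intervals cover counting error only.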

Additional observations from a re-analysis of the deposited data

How the results depend on the processing

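With 2 libraries per genotype, calls depended on how the spread was estimated. Genes passing an adjusted p under 0.01 numbered 29 in the main limma fit, 730 with DESeq2, 95 with library totals as scaling, 1 with a pseudocount of 0.1, and 379 at a threshold of 0.05. Other scalings, tests and filters gave 27 to 42. Leaving out any one library gave 0 to 0 genes, S2Lb included, with 2556 to 3298 at an unadjusted p under 0.05. In these fits a gene's own spread comes from the genotype that keeps 2 libraries, so the lost calls say little about stability. Listed metal genes passing 0.01 numbered 0, with 21 by DESeq2, 2 by edgeR's quasi-likelihood test, 4 with library totals, and 10 at a threshold of 0.05. At 0.05 they numbered 26 by DESeq2, where 1204 of all genes passed. Under the other scalings, tests, pseudocounts and filters they numbered 9 to 14, where 288 to 527 of all genes passed. These counts at 0.05 were added after the data were seen. The cause of these differences was not tested. For the members' log2 fold changes, 139 of 140 alternatives kept the direction, of which the replicate block and the filters leave the value as it is and a left-out library can move it by no more than the spread between replicates. The other one was FIT, which ranged from −0.11 (without WT replicate 2) to 0.45 with one library left out. Of 140 alternatives for the 10 called listed genes none turned the direction, and 24 passed 0.01. Leaving out a library could not turn it, since libraries of these genes did not overlap between genotypes. The block and the filters leave the value as it is. No scaling moved the median of all genes by over 0.1.

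Replicate numbers were shared by the genotypes, but no source ties a number to a batch, and 2 pairs cannot settle it. The correlation of deviations from the genotype means between libraries of one number was 0.178 (23723 genes) and 0.407 among the 17913 genes averaging more than 50. With the replicate block, 663 of all genes passed 0.01 and 2051 passed 0.05. Of the listed metal genes 21 passed 0.01 (16 up and 5 down, namely NAS3, YSL1, FER3, FER4 and NEET) and 37 passed 0.05.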

Other observations

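Beyond S2Lb, on the side away from CGLD27, 2 more genes within 500 kb of CGLD27 passed limma at an adjusted p under 0.05, and were singled out after their values were seen. AT5G66052, annotated as an uncharacterized protein, had 0 and 0 normalized counts in s2lb-2, against 214 and 375 in WT. AT5G66150 had 102 and 75.5 in s2lb-2, against 6.30 and 3.72 in WT. Their starts lie 464 and 435 kb from that of CGLD27, and the start of S2Lb lies 413 kb from it, so both are nearer to S2Lb.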
